A study of Homo sapiens with 12 samples.

Results

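The genes described here are 6 secreted binding proteins of the insulin-like growth factors (IGFBP2, IGFBP3, IGFBP4, IGFBP5, IGFBP6 and IGFBP7), the receptors IGF1R and INSR, and the docking proteins IRS1 and IRS2. They were taken as a list of 10 symbols, and every probe set that the platform annotation assigns to 1 of them alone was used, which gave 21 of the 19064 single-gene probe sets and 10 of the 11963 genes on the arrays. All cells carried the label MDA-MB-231, a long-used human breast cancer cell line of mesenchymal, basal-like type that lacks hormone receptors. Per the labels, 3 biological replicates each were stably transfected with scramble shRNA, LSD2 shRNA, the eGFP/Flag vector or the LSD2/eGFP/Flag vector, and all 4 groups were grown with G418 to remove untransfected cells. LSD2, the product of KDM1B, is a demethylase of lysine 4 on histone H3. The labels do not say whether a line is 1 clone or a pool, nor whether the replicates are separate lines, so the p-values measure the spread between these arrays, which may be technical, and the effect of LSD2 cannot be told apart from that of the line chosen.

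As background, IGF1 and IGF2 travel bound to IGF binding proteins, which keep them from the receptor and are opened by proteases. Free ligand activates the receptor tyrosine kinases IGF1R and INSR, which phosphorylate IRS1 and IRS2, and these recruit PI3 kinase and so switch on AKT and mTOR and hold FOXO factors out of the nucleus. In breast cancer IRS1 is mostly linked to hormone-responsive cells and growth, and IRS2 to motile, hormone receptor-negative cells.

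The values are log2 RMA expression values on Affymetrix 3′ arrays, deposited by the authors. The array minima lay between 1.94 and 2.08 in the shRNA arrays and between 3.03 and 3.17 in the vector arrays. Whether these were normalized together is not known, so levels were compared only within the shRNA arrays and within the vector arrays. A probe set was called higher or lower at an adjusted p under 0.05 (limma, Benjamini-Hochberg over all 19064 probe sets), and a gene by its brightest probe set. Brightness was ranked by the mean over all 12 arrays. Arrays of 1 group correlated at r of 0.995 to 0.998 over probe sets. The vector groups correlated with each other only at 0.908 to 0.912, against 0.991 to 0.994 for the shRNA groups. In the shRNA comparison 45.1% of all called probe sets were higher, and 57.1% after a shift to equal medians. In the vector comparison 52.2% were higher, and 46% after that shift. No single-gene probe set named KDM1B (0 of 19064), and neither the knockdown nor the overexpression could be read from its own transcript here.

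The arrays labelled LSD2/eGFP/Flag vector went against the cell line label. All 12 markers listed for MDA-MB-231 were lower there than in the eGFP/Flag arrays, and the range of their mean log2 level over the arrays fell from between 12.11 and 12.12 to between 7.70 and 7.87. The hyaluronan receptor CD44, a defining surface marker of this line, was at 12.41 with eGFP/Flag and at 3.99 in these arrays by its brightest probe set. Its other probe sets gave smaller log2 differences, from -5.23 to -0.05. Of 5 measured neural and teratocarcinoma markers 4 were higher and 1 was lower, and the list's mean level went from between 4.72 and 4.80 to between 8.20 and 8.39. The marker lists were chosen with earlier results of these data known, so these counts describe the arrays and are not a test. In the vector comparison 56.6% of all genes were called, 30.8% higher and 25.8% lower. The 2 measured basal keratins and the 4 measured blood markers were not called in this comparison, 3 of 8 fibroblast and endothelial markers were higher and 1 lower, and 3 of 12 luminal markers were higher and 5 lower. In the shRNA arrays the MDA-MB-231 list stayed between 10.87 and 11.02 in all 6 arrays, with 1 of 12 called higher, and 3 luminal, 1 blood and 1 fibroblast or endothelial marker were also higher with LSD2 shRNA. The part of these markers in the shRNA results was not tested. Every vector result below moves with these marker changes, whose part in it was not tested, and no comparison of LSD2 overexpression is left when those 3 arrays are set aside.

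The shRNA comparison asks which of these genes changed with LSD2 knockdown. IGFBP2 and IGFBP7 fell, 0 rose, and 8 of the 10 were not called by limma. Of all 11963 genes 9.82% were called, 4.66% higher and 5.17% lower. In bulk RNA, less RNA per cell and fewer cells that express a gene cannot be told apart. Both falls exceeded 1 log2 unit, a size reached by 0.527% of all genes. The 10 genes had a median difference of -0.09, beside -0.01 over all genes.

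IGFBP7, a secreted protein that resembles the IGF binding proteins at its amino end and binds insulin, had the largest fall. Its brightest probe set, 201162_at, read 11.01, 11.38 and 10.93 in the scramble arrays and 9.54, 9.88 and 9.48 in the LSD2 shRNA arrays. The groups did not overlap and were 1.05 log2 units apart at their nearest arrays. The mean went from 11.11 ± 0.24 to 9.63 ± 0.21 (SD, n = 3), a difference of -1.47 ± 0.14 (SE; adjusted p = 5.8e-05 by limma). A further probe set, 201163_s_at, read 9.41, 9.50 and 9.48 with scramble and 9.32, 9.26 and 8.25 with LSD2 shRNA. There only replicate 3 of the knockdown lay clearly lower, and the difference of -0.52 ± 0.29 was not called (adjusted p = 0.35 by limma, 95% interval -1.16 to 0.11). The third, 213910_at, stayed between 2.84 and 3.18 in all 6 arrays, near the floor of the scale.

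IGFBP2, a binding protein that also attaches to integrins at the cell surface, was measured by 1 probe set. It read 6.92, 7.28 and 7.08 in the scramble arrays and 6.01, 5.99 and 5.79 with LSD2 shRNA. All 3 knockdown arrays were lower than all 3 controls, by at least 0.91. The mean fell from 7.09 ± 0.18 to 5.93 ± 0.12, a difference of -1.16 ± 0.14 (adjusted p = 0.000331 by limma).

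The other binding proteins were not called in this comparison. IGFBP3, the main carrier of IGF in serum, was at -0.20 ± 0.23 and -0.23 ± 0.15 by its 2 probe sets, with 95% intervals from -0.69 to 0.29 and from -0.54 to 0.09. IGFBP4, an inhibitor of IGF action that the protease PAPPA cleaves, read 11.32, 11.69 and 10.72 with scramble and 11.36, 11.67 and 11.47 with LSD2 shRNA, and its difference of 0.26 ± 0.18 went to 0.00 without scramble replicate 3. IGFBP6, which prefers IGF2, was at -0.08 ± 0.14 (interval -0.38 to 0.22). The 5 probe sets of IGFBP5, a binding protein that attaches to extracellular matrix, lay between -0.10 and -0.04.

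Receptors and docking proteins were not called either. IGF1R was at -0.02 ± 0.12 by its brightest probe set, with an interval from -0.29 to 0.24, and INSR was at -0.15 ± 0.13 (interval -0.43 to 0.13). IRS1 read 9.54, 9.64 and 9.53 with scramble and 9.89, 9.71 and 9.74 with LSD2 shRNA. These arrays did not overlap, but by only 0.07, and the difference of 0.21 ± 0.15 was not called (adjusted p = 0.481 by limma). Of all genes 28.3% had groups that did not overlap, and of the 10 genes 3 did (IGFBP2, IGFBP7 and IRS1). IRS2 was at 0.13 ± 0.11 and 0.07 ± 0.11. Over the receptors and docking proteins the 95% intervals reached from -0.55 (203628_at of IGF1R) to 0.54 (IRS1).

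**Figure D1:**
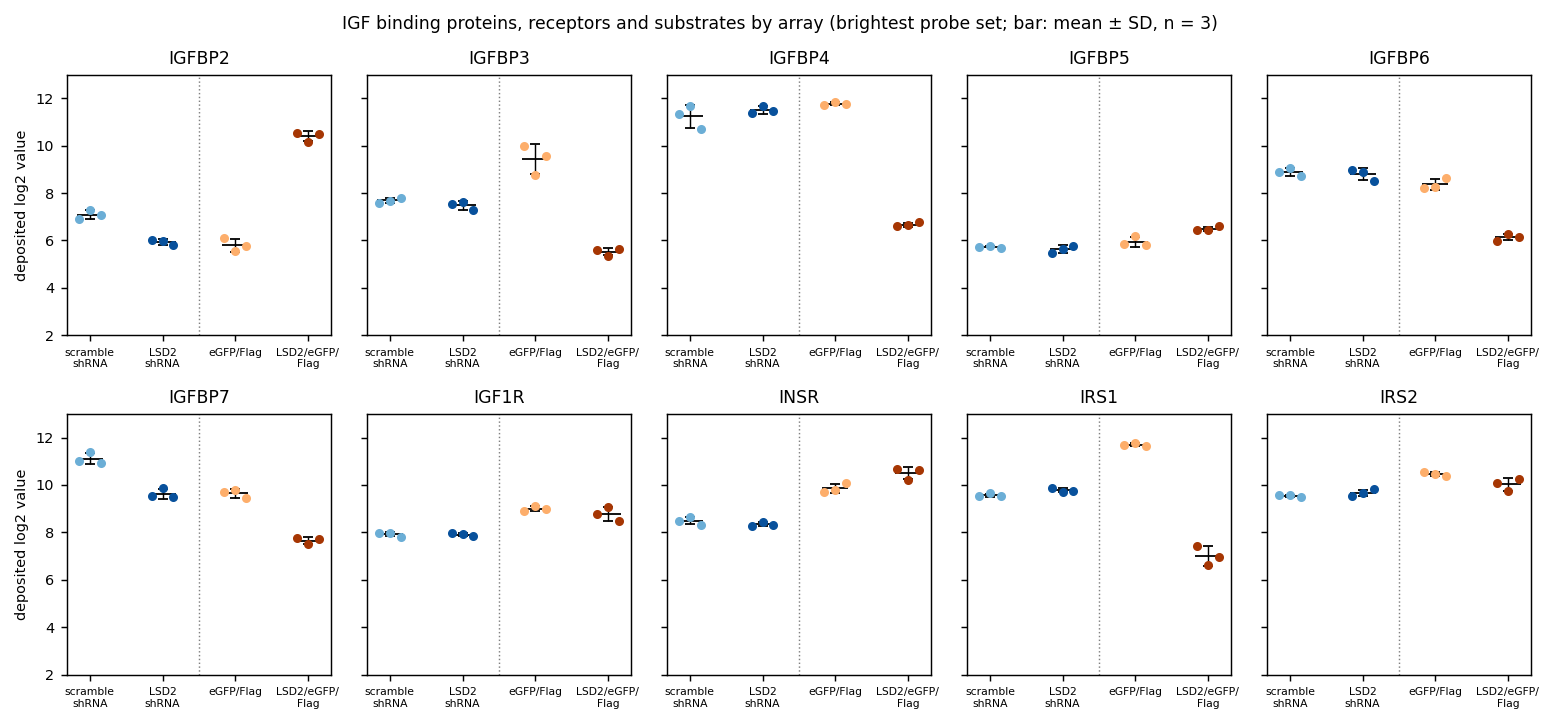
Deposited log2 value (vertical axis) of each of the 10 genes by its brightest probe set, with 1 point per array, the mean and SD of 3 arrays as bars, and a dotted line between the shRNA and the vector arrays, which are not comparable in level. IGFBP7 and IGFBP2 are lower in the LSD2 shRNA arrays than in the scramble arrays, and IGFBP4, IRS1, IGFBP3, IGFBP6 and IGFBP7 are low and IGFBP2 is high in the arrays labelled LSD2/eGFP/Flag.

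Arrays labelled LSD2/eGFP/Flag were then set against those with the eGFP/Flag vector alone, the comparison meant for LSD2 overexpression. Here 9 of the 10 genes were called, IGFBP2, IGFBP5 and INSR higher and IGFBP3, IGFBP4, IGFBP6, IGFBP7, IRS1 and IRS2 lower. This count stands against 56.6% of all genes called (30.8% higher, 25.8% lower). The same 9 genes had groups that did not overlap, as did 61.1% of all genes. A difference of at least 1 log2 unit was called for 6 of the 10 (18.3% of all genes), and of at least 2 for 5 of the 10 (6.16%). The median difference of the 10 genes was -1.22, beside 0.01 over all genes.

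The promoters of the 4 genes with a probe set that differed by more than 4 log2 units in the vector comparison are shown because these genes carry the largest differences, as the 250 bases before the gene start in RefSeq (GRCh38.p14), 5′ to 3′ on the strand of the gene. Capitals mark a TATA box (TATAAA) or a GC box (GGGCGG, or CCGCCC where it lies on the other strand), each searched on both strands. IGFBP2 (1 of 3 listed starts) lies at chr2:216633170-216633419 on the plus strand, IGFBP5 at chr2:216695550-216695799 on the minus strand, IGFBP4 at chr17:40443200-40443449 on the plus strand and IRS1 at chr2:226799821-226800070 on the minus strand.
IGFBP2: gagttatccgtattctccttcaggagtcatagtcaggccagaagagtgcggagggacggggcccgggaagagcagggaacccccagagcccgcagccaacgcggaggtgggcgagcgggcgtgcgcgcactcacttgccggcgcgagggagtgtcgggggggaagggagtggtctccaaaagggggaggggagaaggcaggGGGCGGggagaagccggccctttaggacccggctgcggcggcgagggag
IGFBP5: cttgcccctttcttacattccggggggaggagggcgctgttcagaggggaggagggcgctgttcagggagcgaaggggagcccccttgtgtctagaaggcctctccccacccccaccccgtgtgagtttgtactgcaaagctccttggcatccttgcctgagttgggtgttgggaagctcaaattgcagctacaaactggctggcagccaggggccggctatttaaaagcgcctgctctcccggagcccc
IGFBP4: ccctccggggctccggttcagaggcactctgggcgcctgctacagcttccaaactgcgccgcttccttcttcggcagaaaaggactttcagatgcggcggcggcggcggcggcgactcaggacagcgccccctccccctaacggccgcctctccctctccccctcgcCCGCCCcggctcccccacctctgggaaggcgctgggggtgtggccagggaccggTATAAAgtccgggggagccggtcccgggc
IRS1: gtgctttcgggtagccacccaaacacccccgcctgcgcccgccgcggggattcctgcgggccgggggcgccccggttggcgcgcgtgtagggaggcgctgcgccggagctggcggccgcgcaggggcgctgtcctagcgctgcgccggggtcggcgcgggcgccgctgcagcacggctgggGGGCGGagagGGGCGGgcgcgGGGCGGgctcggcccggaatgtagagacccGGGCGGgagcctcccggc
IGFBP4 has a TATA box 29 bases before its start and a GC box at 83, IRS1 has 4 GC boxes between 69 and 18 bases before its start, IGFBP2 has 1 at 49, and the IGFBP5 window has neither motif. Of the 10 genes 9 had an entry, IGFBP7 being the exception, and 8 of the 9 held a GC box in at least 1 entry, against 42.6% of 35116 promoters. The shares over all promoters are per entry, whereas the counts of the 9 are per gene. IGFBP2, with 3 entries, could match by any of them, so the 2 rates are not like for like. A TATA box was found in 1 of the 9 (10.7% of all promoters) and the forkhead motif GTAAACA in 1, IGFBP6 (2.98%). AP-1 (TGACTCA, 4.2%) and E-box (CACGTG, 6.34%) motifs were found in 0 of the 9, all searched on both strands. CpG dinucleotides numbered 8 in the IGFBP5 window, 22 in the IGFBP2 window shown, 24 in that of IGFBP4 and 39 in that of IRS1, and the median over all promoters was 11. The windows of the other listed IGFBP2 starts, not shown, held 7 and 4, and the one with 4 had neither a TATA box nor a GC box. These matches describe letters, not binding.

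IGFBP2 had the largest rise of the list. It read 6.10, 5.55 and 5.76 in the eGFP/Flag arrays and 10.55, 10.16 and 10.51 in the arrays labelled LSD2/eGFP/Flag. The nearest arrays of the groups were 4.06 apart, and the mean went from 5.81 ± 0.28 to 10.41 ± 0.21. The difference was 4.60 ± 0.14 (adjusted p = 7.4e-12 by limma), 24.3-fold on the linear scale. IGFBP2 thus fell in the shRNA comparison and rose in the vector comparison, and the test of the difference between these effects gave -5.76 ± 0.20 (adjusted p = 6.0e-11 by limma, where 49.7% of all genes were called).

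IGFBP5 depended on the probe set. The dimmest of its 5, 211959_at, read 4.55, 4.49 and 4.71 with eGFP/Flag and 8.98, 8.46 and 9.10 with LSD2/eGFP/Flag, a difference of 4.26 ± 0.14 (adjusted p = 1.2e-11 by limma). All 3 arrays labelled LSD2/eGFP/Flag were higher than the controls by at least 3.75. The brightest, 203424_s_at, rose by 0.55 ± 0.10, from 5.94 ± 0.20 to 6.49 ± 0.09 (adjusted p = 0.000435 by limma). Probe set 211958_at was at 0.37 ± 0.14 (adjusted p = 0.0341 by limma), and its call was lost without any single vector array other than replicate 2 of eGFP/Flag, the adjusted p then lying between 0.0593 and 0.17. Equal medians (adjusted p = 0.0898 by limma) and a fit of only the compared groups (0.0699) also ended that call. The remaining 2, 203425_s_at and 203426_s_at, were at -0.01 ± 0.07 and 0.05 ± 0.08. The 4 probe sets other than 211959_at stayed between 5.43 and 6.59 in the vector arrays, values that RMA gives without a detection call.

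**Figure D2:**
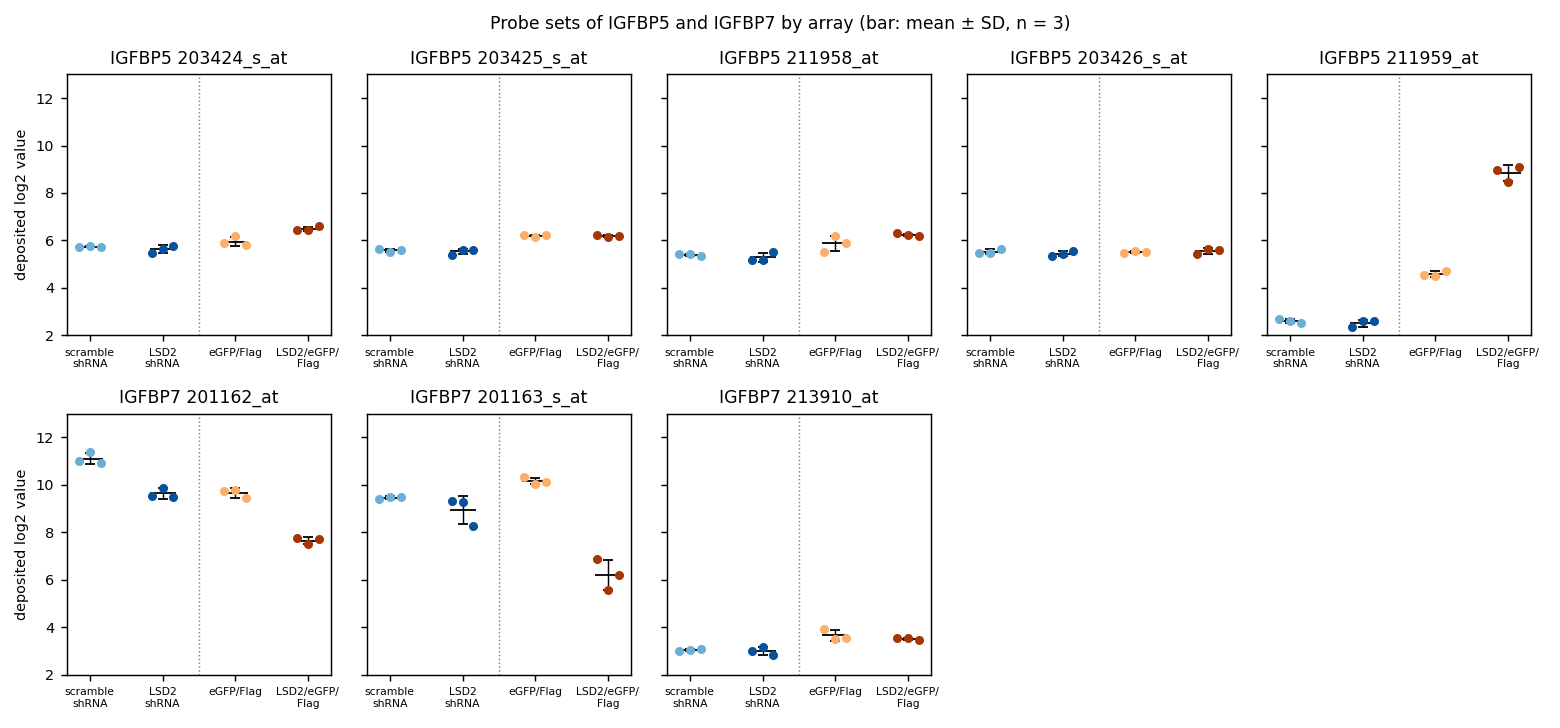
Deposited log2 value (vertical axis) of each probe set of IGFBP5 (top, 5 probe sets) and IGFBP7 (bottom, 3), ordered from brightest to dimmest over the 12 arrays, with 1 point per array and the mean and SD of 3 arrays. For IGFBP5 only 211959_at rises to between 8.46 and 9.10 in the arrays labelled LSD2/eGFP/Flag, and for IGFBP7 2 probe sets fall there while 213910_at stays near the floor.

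IGFBP4 had the largest fall. It read 11.73, 11.83 and 11.74 in the eGFP/Flag arrays and 6.60, 6.64 and 6.76 in those labelled LSD2/eGFP/Flag. The groups lay 4.97 apart at their nearest, far beyond the spread within either. Its difference was -5.10 ± 0.18 (adjusted p = 2.3e-11 by limma).

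IGFBP3 fell by both of its probe sets, by different amounts. The brighter, 210095_s_at, read 9.98, 8.74 and 9.55 with eGFP/Flag and 5.61, 5.36 and 5.62 with LSD2/eGFP/Flag, a difference of -3.89 ± 0.23 (adjusted p = 4.3e-09 by limma). Its control arrays spread over more than a log2 unit, yet all 3 lay above the others by at least 3.12. For 212143_s_at the values were 7.49, 7.29 and 7.97 against 5.93, 5.90 and 5.66, and the difference was -1.75 ± 0.15 (adjusted p = 1.7e-07 by limma). Both probe sets differed between the shRNA and the vector effect, by 3.69 ± 0.32 and 1.53 ± 0.21.

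IGFBP6 read 8.23, 8.24 and 8.62 with eGFP/Flag and 5.99, 6.26 and 6.16 with LSD2/eGFP/Flag. Its difference was -2.22 ± 0.14 (adjusted p = 9.7e-09 by limma), with no overlap of the groups.

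IGFBP7 was the only 1 of the 10 genes called lower in both comparisons. Probe set 201162_at read 9.72, 9.80 and 9.43 with eGFP/Flag and 7.75, 7.50 and 7.70 with LSD2/eGFP/Flag, a difference of -2.00 ± 0.14 (adjusted p = 3.1e-08 by limma). Probe set 201163_s_at, not called with LSD2 shRNA, fell from 10.31, 10.03 and 10.13 to 6.86, 5.56 and 6.18, by -3.96 ± 0.29. All arrays labelled LSD2/eGFP/Flag lay below the controls by both probe sets. The shRNA and vector effects on 201162_at differed by 0.52 ± 0.20 (adjusted p = 0.0436 by limma). That call was lost without 7 of the 12 arrays, with adjusted p from 0.0591 to 0.111 (replicates 1 and 3 of scramble, 2 of LSD2 shRNA, 1 and 2 of eGFP/Flag, 2 and 3 of LSD2/eGFP/Flag). For 201163_s_at the difference between effects was 3.43 ± 0.41 (adjusted p = 1.2e-05 by limma). Of all genes 7.48% were called in both comparisons, and of the 10 these were IGFBP2 and IGFBP7.

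The receptors moved by less than 1 log2 unit, and the median size of the difference over all genes was 0.31. INSR, the insulin receptor, which also pairs with IGF1R in hybrid receptors, read 9.72, 9.80 and 10.08 with eGFP/Flag and 10.69, 10.21 and 10.62 with LSD2/eGFP/Flag. The groups were separated by 0.13, and the rise was 0.64 ± 0.13 (adjusted p = 0.000799 by limma). Its dimmer probe set rose by 0.46 ± 0.07, again without overlap. IGF1R, the main receptor of IGF1, gave -0.22 ± 0.12 by 203627_at (8.92, 9.10 and 8.99 against 8.76, 9.09 and 8.48), which was not called (adjusted p = 0.149 by limma, interval -0.49 to 0.04). Without LSD2/eGFP/Flag replicate 2 it was called, at -0.38 (adjusted p = 0.00653 by limma). Probe set 203628_at fell by 0.81, from 7.86 ± 0.29 to 7.05 ± 0.07 (adjusted p = 0.000431 by limma), and 208441_at was at -0.10 ± 0.07.

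The docking proteins differed in size. IRS1 read 11.70, 11.75 and 11.65 in the eGFP/Flag arrays and 7.43, 6.61 and 6.95 in those labelled LSD2/eGFP/Flag, and its difference was -4.71 ± 0.15 (adjusted p = 8.1e-12 by limma). The control arrays lay within 0.1, and the nearest array of the other group was 4.22 lower. IRS2 read 10.55, 10.48 and 10.38 against 10.09, 9.74 and 10.26, a difference of -0.44 ± 0.11 (adjusted p = 0.00494 by limma) with the groups 0.12 apart. Its other probe set fell by 0.34 (adjusted p = 0.0212 by limma), a call lost without replicate 2 of either vector group (adjusted p = 0.0852 and 0.0991). A fit of only the compared groups also ended that call (adjusted p = 0.0589 by limma). By their brightest probe sets, both docking proteins differed between the shRNA and the vector effect. IRS1 differed by 4.92 ± 0.21 (adjusted p = 3.8e-10 by limma) and IRS2 by 0.57 ± 0.16 (adjusted p = 0.01 by limma). For 209184_s_at of IRS2 the difference between effects, 0.41 ± 0.16, was not called (adjusted p = 0.0532 by limma). Its adjusted p ranged from 0.02 to 0.128 by limma over the settings tried.

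**Figure D3:**
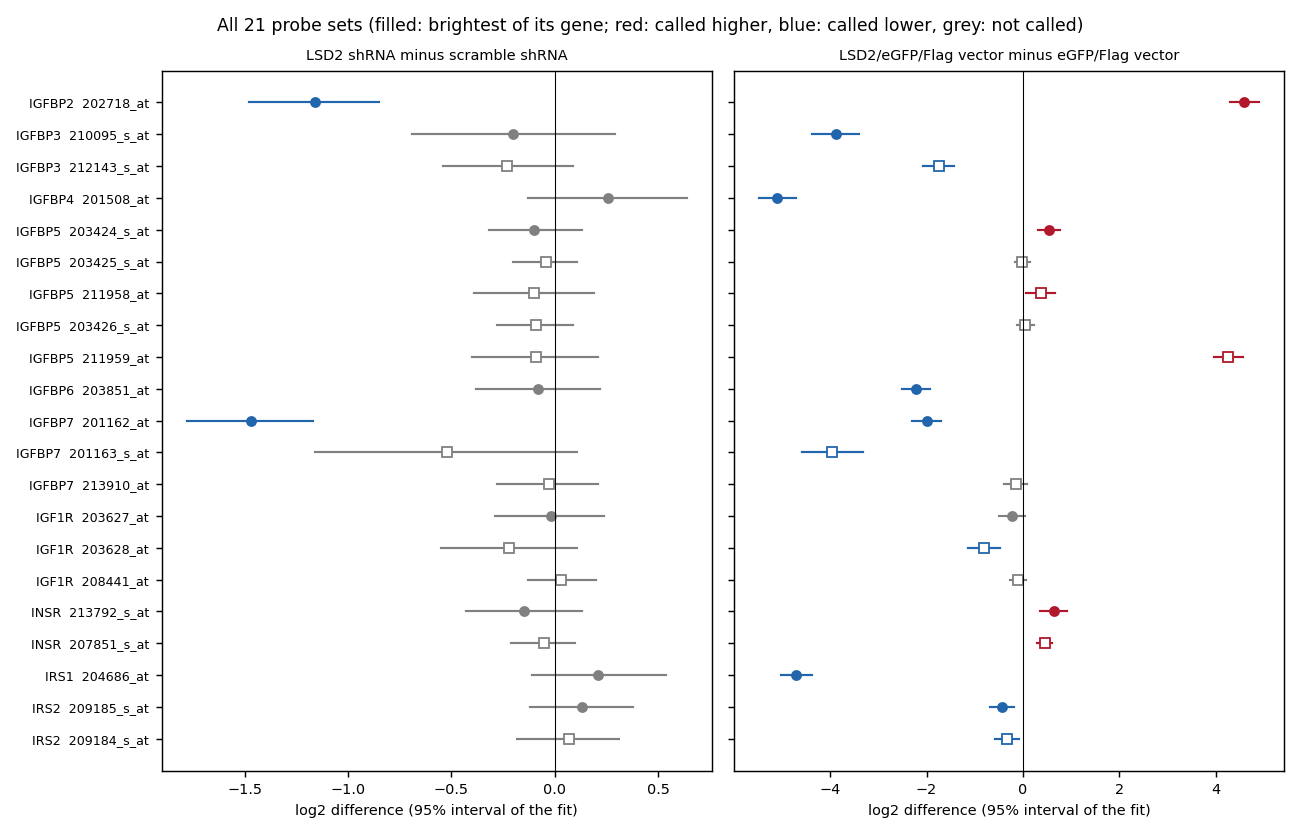
Log2 difference (horizontal axes, on different scales) of all 21 probe sets with the 95% interval of the limma fit, for the shRNA comparison (left) and the vector comparison (right). Filled circles are the brightest probe set of a gene. On the left IGFBP2 and 201162_at of IGFBP7 are the 2 of 21 probe sets called, both lower, against 8.73% of all probe sets, and on the right 16 of 21 probe sets are called, 6 higher and 10 lower, against 54.6% of all probe sets.

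The test of the difference between the shRNA and vector effects called 9 of the 10 genes, IGF1R being the exception by its brightest probe set (0.20 ± 0.17, adjusted p = 0.393 by limma, called at 0.35 without LSD2/eGFP/Flag replicate 2, adjusted p = 0.0488). Of all genes 49.7% were called here. The shRNA difference lay above the vector difference for IGFBP3, IGFBP4, IGFBP6, IGFBP7, IRS1 and IRS2 (22.1% of all genes), and below it for IGFBP2, IGFBP5 and INSR (27.6%). For IGFBP5 203424_s_at gave -0.64 ± 0.15 and 211959_at -4.36 ± 0.20, and its other probe sets were not called (adjusted p from 0.062 to 0.853 by limma). Probe set 203628_at of IGF1R was called at 0.59 ± 0.22 (adjusted p = 0.0375 by limma). That call was lost without each of 7 single arrays (adjusted p from 0.0647 to 0.0966).

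Other genes of the pathway were counted from 5 lists with 82 measured genes. With LSD2 shRNA 5 rose and 4 fell, 11% of the lists beside 9.82% of all genes. In the vector comparison 29 rose and 22 fell, 62.2% beside 56.6%, and with equal medians 26 rose and 27 fell. Both pooled shares lay near those of all genes, but the lists differed. With LSD2 shRNA they ran from 0% called (ligands) to 25% (binding-protein relatives and proteases). In the vector comparison the ligand list had 14.3% called, the PI3 kinase relay 53.8% and the binding-protein relatives 56.2%. The FOXO list had 69.2% and the adaptors and brakes 90%. The median difference of the 82 genes was -0.01 in the shRNA comparison and 0.04 in the vector comparison, beside -0.01 and 0.01 over all genes.

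Relatives of the binding proteins and the proteases that cleave them held the largest differences. Of 16 measured, 2 rose and 2 fell with LSD2 shRNA. IGFBP1, the liver-type binding protein that insulin represses, rose by 1.05 ± 0.16 (adjusted p = 0.00152 by limma), and CCN3, a matricellular protein with an IGF binding protein domain, by 1.34 ± 0.13 (adjusted p = 5.6e-05). HTRA1, a secreted protease with such a domain, fell by 0.90 (adjusted p = 0.0128 by limma), a call lost without replicate 2 of scramble or replicate 1 or 3 of LSD2 shRNA (adjusted p from 0.0512 to 0.0596). CTSD, the lysosomal protease cathepsin D, was the other fall (by 0.54). Of these 16, 8 fell and 1 rose in the vector comparison. The matricellular proteins CCN2 (-7.36), CCN3 (-6.32) and CCN1 (-4.82), which carry IGF binding protein domains, had the largest falls of this list, and the dimmer probe set of CCN3 gave -3.20. IGFBP1 fell by 4.73, from 9.68 ± 0.10 to 4.95 ± 0.05, so its 2 differences had the signs opposite to those of IGFBP2. The rise was STC2, an inhibitor of the protease PAPPA (2.33 ± 0.14, and 4.28 by its other probe set).

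Ligands gave no large difference. In the shRNA comparison 0 of 7 measured genes were called by limma, with IGF1 at 0.04, INS at 0.00, the scavenging receptor IGF2R at -0.15, INSRR at -0.09, IGF2BP2 at -0.05, IGF2BP3 at -0.07 and RLN2 at 0.12. With the LSD2/eGFP/Flag vector IGF2BP2, which binds IGF2 mRNA, rose by 0.24 ± 0.07 (adjusted p = 0.0122 by limma). That call was lost without replicate 2 of eGFP/Flag (adjusted p = 0.0527 by limma) and with equal medians (adjusted p = 0.0515). The other 6 were not called, IGF1 being at -0.01, INS at 0.02, IGF2R at 0.22, INSRR at -0.19, IGF2BP3 at -0.12 and RLN2 at 0.18. Other probe sets of IGF1, IGF2R and IGF2BP3 lay between -0.30 and 0.23 with LSD2 shRNA and between -0.36 and 0.34 in the vector comparison. No single-gene probe set named IGF2 was used.

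Among 20 receptor adaptors and their brakes, 1 rose and 1 fell with LSD2 shRNA, the phosphatase PTPN11 (0.38 ± 0.09, and 0.00 to 0.22 by its other probe sets) and the signalling suppressor SOCS2 (fell by 0.44). Both calls were lost when single arrays were left out. The adjusted p was then between 0.0668 and 0.0921 for PTPN11 (replicates 1 and 2 of scramble, 1 and 3 of LSD2 shRNA) and between 0.0757 and 0.192 for SOCS2 (each replicate of scramble, 1 and 3 of LSD2 shRNA). SOCS2 was also not called after cyclic loess (adjusted p = 0.0645 by limma) or with equal medians (0.0766). A fit of only the compared groups ended both calls, with adjusted p of 0.0921 for SOCS2 and 0.0572 for PTPN11. With the LSD2/eGFP/Flag vector 8 rose and 10 fell, 90% beside 56.6% of all genes. The insulin receptor inhibitor ENPP1 fell by 3.11, the exchange factor SOS2 fell by 1.64 (-0.01 by its dimmest probe set) and the inhibitory adaptor GRB14 rose by 2.28 ± 0.16.

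Of 26 genes of the PI3 kinase, AKT and mTOR relay, PIK3R1 rose and AKT1 fell with LSD2 shRNA. The rise of PIK3R1, a regulatory subunit of PI3 kinase, was 0.53 ± 0.10 (0.45 and 0.04 by its other probe sets). AKT1 fell by 0.35. The call of AKT1 was lost when replicate 1 or 2 of scramble, or 1 or 3 of LSD2 shRNA, was left out (adjusted p from 0.0627 to 0.0833 by limma). In the vector comparison 12 rose and 2 fell, with the mTOR inhibitor DEPTOR (2.25 ± 0.21), the PI3 kinase subunit PIK3R3 (2.04 ± 0.13, but 0.01 by another probe set) and the mTOR partner MLST8 (1.40 ± 0.08) among the rises. Of 13 FOXO factors and FOXO-linked genes, the thioredoxin-binding protein TXNIP was the only call with LSD2 shRNA, a rise of 0.60. Leaving out replicate 1 or 2 of scramble, or 3 of LSD2 shRNA, ended that call (adjusted p from 0.0514 to 0.0629 by limma). In the vector comparison 7 of these 13 rose and 2 fell, led by sestrin SESN1 (2.05 ± 0.08) among the rises and by the transcription factors KLF6 (-1.89) and BCL6 (-1.66) among the falls. Other probe sets of KLF6 and BCL6 gave smaller falls, down to -0.20 and -0.23.

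**Figure D4:**
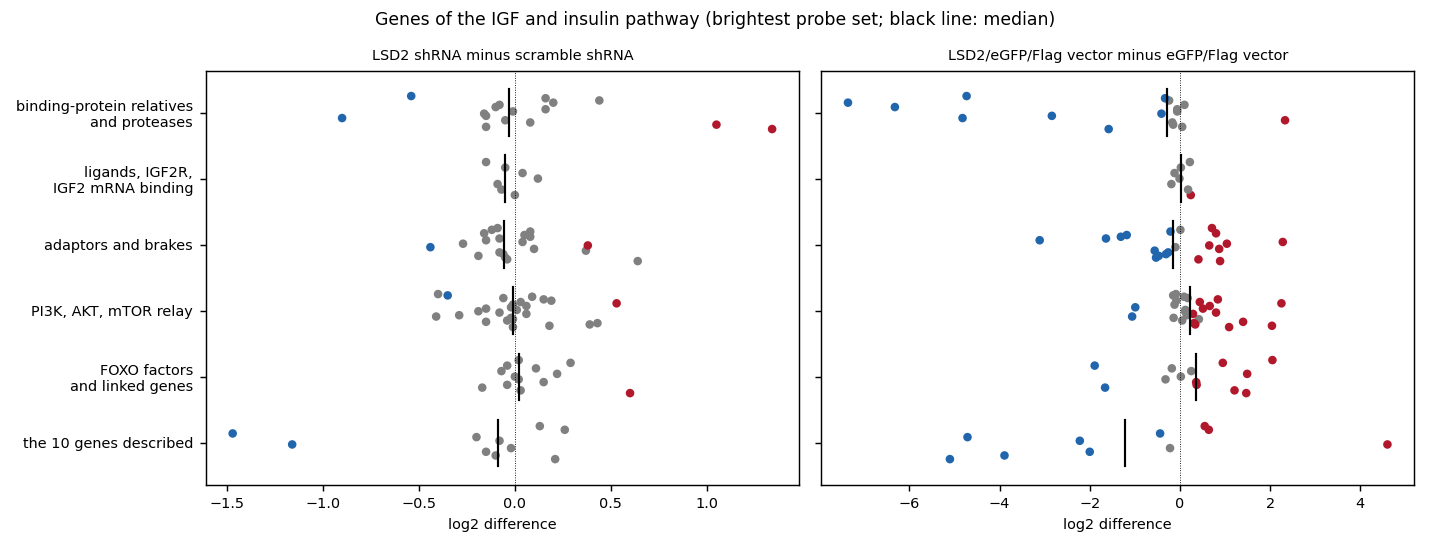
Log2 difference (horizontal axes, on different scales) of the measured genes of the 5 pathway lists and of the 10 genes described, by the brightest probe set, with red for called higher, blue for called lower, grey for not called and a black line at the median. The 10 genes have a median of -1.22 in the vector comparison, and the medians of the 5 lists lie between -0.28 and 0.36.

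On the chromosome, IGFBP2 and IGFBP5 are each other's nearest measured gene on 1 side, with RPL37A beyond IGFBP2 (-0.02 with LSD2 shRNA and -0.01 in the vector comparison) and IGFBP-AS1 beyond IGFBP5 (0.09 and -0.03). Of the 10 measured genes nearest to IGFBP2, 3 were lower and 0 higher with LSD2 shRNA, and 1 was higher and 2 lower in the vector comparison. The shares over all genes were 5.17% lower and 4.66% higher with LSD2 shRNA, and 30.8% higher and 25.8% lower in the vector comparison. Around IGFBP7 the counts were 1 higher and 0 lower, and 4 higher and 1 lower. Its nearest were POLR2B (0.08 and 0.07) and ADGRL3 (0.02 and 2.31). IGFBP3 lies between IGFBP1 and TNS3, and all of these fell in the vector comparison, TNS3 by 1.48. With LSD2 shRNA IGFBP1 was higher (1.05 ± 0.16) and TNS3 lower (-0.64 ± 0.16, adjusted p = 0.0276 by limma), while IGFBP3 was not called.

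For the other genes the nearest measured neighbours in the vector comparison were TOP2A (-0.54) and TNS4 (-0.42) for IGFBP4, and TNS2 (-1.02) and SOAT2 (0.07) for IGFBP6. They were MCTP2 (-2.44) and LUNAR1 (-0.37) for IGF1R and ZNF557 (-1.74) and ARHGEF18 (-1.02) for INSR. DOCK10 (-4.50) and COL4A4 (-0.08) lay beside IRS1, and MYO16 (-0.18) and COL4A1 (-0.23) beside IRS2. Around INSR, which was higher, 7 of 10 neighbours were lower and 1 was higher, beside 25.8% of all genes lower and 30.8% higher. The counts were 6 lower and 1 higher around IGF1R, 5 and 1 around IRS1, and 5 and 2 around IRS2. Lower and higher neighbours numbered 4 and 3 around IGFBP4, 4 and 2 around IGFBP6, and 3 and 2 around IGFBP3. In the shRNA comparison none of the 12 neighbours named for these genes was called by limma.

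Genes most like IGFBP2 and IGFBP7 were sought by the root mean square difference over the 12 arrays, after the mean of the shRNA or vector arrays was subtracted from each gene. For IGFBP2 these were the creatine transporter SLC6A8 (0.26 log2 units, with differences of -0.62 and 4.66) and the transcription factor TFAP2A (0.28, with -0.50 and 4.57). For IGFBP7 they were the myosin light chain MYL9 (0.27, with -1.09 and -1.70) and HTRA1 (0.30, with -0.90 and -1.58). These are descriptions over 11962 other genes and carry no test.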

How the data were processed

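The authors deposited log2 expression values of 22277 probe sets on 12 arrays, and per the submitters' processing notes they are RMA values. The RMA software used is not given in the sources used here. RMA values carry no detection call, and with 3 arrays a group precision is limited by their number.

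Probe sets naming 1 gene in the platform annotation (19064) were named through RefSeq (GRCh38.p14), 19052 of them by gene identifier. limma 3.58.1 in R 4.3.3 fitted a mean per group over all 12 arrays, with two-sided tests and Benjamini-Hochberg adjustment over the 19064. Errors are SE of the fit or SD of 3 arrays. The fit was tested on simulated data. Replicate numbers were not used to pair the arrays in this fit, and a replicate block was tried as an alternative. Same-numbered shRNA arrays deviated together at r of 0.003, 0.456 and 0.385, and differently numbered ones at -0.445 to 0.095. In the vector arrays the same-numbered values were -0.156, 0.136 and 0.149, and the others lay between -0.227 and 0.085.

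The genes and lists were chosen with earlier results of these data known. Text names all 10 genes, up to 3 called genes per list and comparison with the largest differences, every measured gene of the ligand list, the nearest measured neighbours and the 2 most alike genes. CTSD and STC2 were added after their values were seen, and CD44 as a marker. Alternatives tried were a replicate block, only the compared groups, other scalings and filters, probe set rules, an intensity trend, array weights, a stricter threshold and leaving out each array. Multi-gene probe sets (1043) and levels across the shRNA and vector arrays were left out.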

Additional observations from a re-analysis of the deposited data

How the results depend on the processing

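The number of the 10 genes called stayed at 2 in the shRNA comparison under the 10 other planned settings and without each array, and at 9 or 10 in the vector comparison. With the replicate block, 2 and 9 genes were called, and 10 and 54 pathway genes, against 9 and 51 without it. The block changed no call of the 10 genes by their brightest probe set, ended the difference between effects of 203628_at of IGF1R (adjusted p = 0.0528 by limma) and gave a call of IGF2R in the vector comparison (adjusted p = 0.0305). Counting a gene only when all its probe sets agree, a rule chosen after seeing the data, left 1 gene in the shRNA comparison (IGFBP2) and 7 in the vector comparison. The rule could not remove IGFBP2, IGFBP4, IGFBP6 or IRS1, each with a single probe set. Of the genes with several, it kept none in the shRNA comparison, and IGFBP3, INSR and IRS2 in the vector comparison. The 9 pathway genes called with LSD2 shRNA became 17 with array weights and 3 at an adjusted p under 0.01, and ranged from 3 to 9 without single arrays (4 without replicate 1 or 2 of scramble or 1 of LSD2 shRNA, 3 without replicate 3 of LSD2 shRNA). Of 1500 values of single probe sets under other settings, 1396 kept direction and call, 61 lost and 11 gained a call, and 32 changed sign, none of them called. With LSD2 shRNA, 213910_at of IGFBP7 turned to 0.01 with equal medians and with array weights, 203627_at of IGF1R to 0.01 after cyclic loess and 0.02 with equal medians, and INS to 0.00 after cyclic loess or with array weights and 0.04 with equal medians. In the vector comparison 203426_s_at of IGFBP5 turned to -0.01 and INS to -0.04 with equal medians. The difference between effects of 203425_s_at of IGFBP5 turned to 0.01 after cyclic loess and 0.08 with equal medians. Without single arrays, the uncalled shRNA differences that changed sign ranged from 0.00 to 0.48 (IGFBP4), -0.08 to 0.02 (203425_s_at of IGFBP5), -0.17 to 0.06 (IGFBP6), -0.12 to 0.05 (213910_at of IGFBP7), -0.08 to 0.01 (203627_at of IGF1R), -0.01 to 0.10 (209184_s_at of IRS2), -0.05 to 0.03 (INS), -0.03 to 0.08 (IGF1) and -0.10 to 0.29 (RLN2). In the vector comparison these were -0.03 to 0.00 (203425_s_at of IGFBP5), -0.08 to 0.10 (INS) and -0.06 to 0.02 (IGF1), and for the difference between effects -0.07 to 0.04 (203425_s_at of IGFBP5) and -0.02 to 0.20 (213910_at of IGFBP7). The cause of these changes was not tested. Probe sets near the low end of the scale have no detection call, which limits what their small differences show.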
